A study of Mus musculus with 24 samples.

Results

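The 10 genes described here encode proteins that neutrophils store in granules or hold in the cytosol: Mpo, Elane, Prtn3 and Ctsg of primary granules, Camp, Ngp, Ltf and Mmp8 of secondary granules, and the calcium-binding pair S100a8 and S100a9. They were chosen by name, with earlier results of these data known, from 34113 genes in a table of 3′ tag RNA-seq. All 10 passed the filter on low counts in each fit. In CD8 libraries of mice without lymphoma, Elane, Ctsg and Ltf held at most 3, 7 and 9 counts. They thus passed the CD8 filter through libraries of mice with lymphoma, and a fall in lymphoma could hardly have been called for them. In CD4 libraries of mice without lymphoma, Elane held at most 10 counts and Ctsg at most 17. Both likewise passed the CD4 filter through libraries of mice with lymphoma, with the same limit on calling a fall. The 24 libraries came from splenic T cells of C57BL/6N mice, in 8 groups of 3: CD8 and CD4 cells, each from Atm-/- mice (KO) and Atmwt/wt mice (WT), with a B-cell lymphoma transplant or with none. Atm encodes a kinase of the DNA damage response, and the labels tie its loss to no cell type. Each library is a labelled replicate from a pool of mice, and the same 12 pools gave both cell types. WT lymphoma pools held 1 mouse each and the other pools 2 or 3, for 22 mice in all. The labels do not say how CD4 and CD8 cells were separated, how old the mice were, or how long after the transplant the spleens were taken. In the fits of 1 cell type, p-values measure the spread between these pools. A fit of all 24 libraries counts both libraries of a pool as separate, unless the pool enters as a block. With that block, p-values measure how the CD8 to CD4 difference varies from pool to pool.

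Neutrophils build their granules in a fixed order as they mature in the marrow. Primary, or azurophil, granules are filled at the promyelocyte stage with myeloperoxidase and serine proteases, secondary granules later at the myelocyte stage, and the mRNAs for primary contents fade as the cell matures. S100a8 and S100a9 mRNAs stay abundant in mature neutrophils and occur in monocytes. The mouse spleen can hold blood-forming tissue and neutrophils of all these stages, whereas T cells are not known as a source of these granule proteins. In a bulk library, fewer cells of a type and less RNA per cell cannot be told apart, so each value given here is a level in the isolated T cell preparation and not in a T cell.

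The libraries held 6470482 to 10196062 counts, so that 3 counts, taken here as the limit of detection, correspond to 0.294 to 0.464 counts per 1e6 counts of the library (CPM). Cd8a measured 142 to 534 CPM in CD8 libraries, against 2.84 to 22.5 CPM in CD4 libraries, and Cd4 measured 1.46 to 7.94 CPM in CD8 libraries, against 71.1 to 134 CPM in CD4 libraries. Atm measured 26.9 to 107 CPM in KO libraries, against 117 to 210.3 CPM in WT libraries, and the ranges did not overlap. The labels do not give the deleted part of Atm, so its 3′ tags are a partial check of the genotype. Both libraries of KO lymphoma pool 3 stood apart in the primary granule genes, and the CD8 library of KO lymphoma pool 1 stood apart in the secondary granule genes, S100a8 and S100a9. For part of the lymphoma results that rest on these libraries, values without them are given as well. DESeq2 counts, correlations and some list counts are given with all libraries only. The summed CPM of 3 Y-linked genes ran from 0.986 to 51.5 in CD4 KO lymphoma libraries, 1.25 to 57.7 in CD4 KO control libraries, 1.88 to 117 in CD4 WT lymphoma libraries and 68.1 to 189 in CD4 WT control libraries. The sexes of the pooled mice thus differed between groups, and the part of sex in the results was not tested.

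The promoters of the 4 primary granule genes, which moved together across libraries, are shown with those of Ngp and Ltf, from a group that moved apart from the first 4. Camp, S100a8 and S100a9 moved with Ngp and Ltf, and their promoters are not shown. They are RefSeq sequences on build GRCm38.p6 and run from 250 bases before the transcription start to 50 after it, on the strand of the gene. Capitals mark 2 kinds of short motif that a search of both strands found: GAGGAA or its reverse TTCCTC, of the kind the myeloid factor PU.1 binds, and TTGCNNAA or its reverse TTNNGCAA, of the kind C/EBP factors bind. The regions are chr11:87793534-87793833, + strand, for Mpo; chr10:79886062-79886361, + strand, for Elane; chr10:79879417-79879716, + strand, for Prtn3; chr14:56102525-56102824, - strand, for Ctsg; chr9:110419558-110419857, + strand, for Ngp; and chr9:111019042-111019341, + strand, for Ltf.
Mpo: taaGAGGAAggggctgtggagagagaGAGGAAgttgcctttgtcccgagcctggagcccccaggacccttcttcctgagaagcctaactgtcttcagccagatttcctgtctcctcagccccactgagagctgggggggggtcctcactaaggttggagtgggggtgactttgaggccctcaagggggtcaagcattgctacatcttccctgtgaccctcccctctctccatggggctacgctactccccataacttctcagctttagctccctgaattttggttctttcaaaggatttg
Elane: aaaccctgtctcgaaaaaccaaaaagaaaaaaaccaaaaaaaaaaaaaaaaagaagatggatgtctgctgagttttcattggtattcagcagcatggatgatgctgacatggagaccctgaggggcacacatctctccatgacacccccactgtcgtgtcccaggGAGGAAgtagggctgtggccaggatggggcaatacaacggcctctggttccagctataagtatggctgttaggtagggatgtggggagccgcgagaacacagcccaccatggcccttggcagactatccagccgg
Prtn3: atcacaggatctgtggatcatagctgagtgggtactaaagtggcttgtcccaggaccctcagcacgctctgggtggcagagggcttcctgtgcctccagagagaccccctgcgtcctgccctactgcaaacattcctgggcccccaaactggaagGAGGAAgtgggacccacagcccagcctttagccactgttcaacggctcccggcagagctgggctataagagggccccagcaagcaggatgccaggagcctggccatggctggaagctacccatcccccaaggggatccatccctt
Ctsg: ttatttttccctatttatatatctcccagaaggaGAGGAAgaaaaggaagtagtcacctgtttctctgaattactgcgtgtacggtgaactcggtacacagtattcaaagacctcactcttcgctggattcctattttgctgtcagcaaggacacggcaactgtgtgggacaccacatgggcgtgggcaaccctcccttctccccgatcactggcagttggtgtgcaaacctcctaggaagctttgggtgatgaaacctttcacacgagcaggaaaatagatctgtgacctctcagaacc
Ngp: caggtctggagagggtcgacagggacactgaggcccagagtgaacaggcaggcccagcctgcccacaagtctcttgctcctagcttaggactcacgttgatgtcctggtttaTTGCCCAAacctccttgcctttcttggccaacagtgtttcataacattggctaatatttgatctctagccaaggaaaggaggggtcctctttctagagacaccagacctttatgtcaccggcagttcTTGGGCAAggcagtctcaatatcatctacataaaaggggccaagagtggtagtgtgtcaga
Ltf: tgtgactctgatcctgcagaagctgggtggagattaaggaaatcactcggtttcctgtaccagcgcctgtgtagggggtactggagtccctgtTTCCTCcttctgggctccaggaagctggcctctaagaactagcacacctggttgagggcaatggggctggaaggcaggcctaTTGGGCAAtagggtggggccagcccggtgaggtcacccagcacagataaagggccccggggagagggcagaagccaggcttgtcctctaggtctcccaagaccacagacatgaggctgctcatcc
All 4 primary granule promoters held GAGGAA, with its first base 247 and 224 bases before the start in Mpo, 85 before it in Elane, 95 before it in Prtn3 and 216 before it in Ctsg. Among all 10 genes, 7 held this motif on either strand, the 4 above with Ltf, Mmp8 and S100a8, against 28.1% of 32544 RefSeq promoters of the same length. The C/EBP-type motif was found in 4 of 10, Ngp, Ltf, Mmp8 and S100a9, against 10.8% of all promoters, and in Ngp it began 138 and 11 bases before the start. Camp held neither. A match of letters is a description and not a measured binding site. Elane and Prtn3 lie 3.1 kb apart on chromosome 10, S100a8 and S100a9 lie 22.6 kb apart on chromosome 3, and Camp, Ngp, Ltf and Mmp8 lie on chromosome 9, the chromosome of Atm, at 45.87 to 57.48 Mb from it. Mpo and Ctsg lie on chromosomes 11 and 14.

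Primary granule genes were at their highest in mice with lymphoma, in both genotypes and both cell types. Mpo encodes myeloperoxidase, which makes hypochlorous acid from peroxide and chloride. In CD8 cells it measured 25.6, 11.1 and 157 CPM in KO lymphoma pools 1, 2 and 3, 8.50, 38.7 and 49.8 CPM in WT lymphoma pools, 2.14, 8.47 and 3.95 CPM in KO control pools and 1.16, 1.69 and 2.42 CPM in WT control pools. Its CD4 levels were 65.3, 23.3 and 349.6 CPM in KO lymphoma pools 1, 2 and 3, 19.3, 106 and 104 CPM in WT lymphoma pools, 4.87, 12.3 and 8.92 CPM in KO control pools and 4.06, 1.97 and 1.70 CPM in WT control pools. Every lymphoma library lay above every control library of its own cell type and genotype, and KO lymphoma pool 3 was the highest in both cell types. Averaged by group, Mpo reached 64.6 ± 80.5 CPM in CD8 KO lymphoma, against 4.85 ± 3.26 CPM in CD8 KO control pools, and 32.3 ± 21.4 CPM in CD8 WT lymphoma, against 1.76 ± 0.628 CPM in CD8 WT control pools (SD, n = 3 each). In CD4 cells the means were 146 ± 177 CPM in KO lymphoma, against 8.70 ± 3.72 CPM in KO control pools, and 76.5 ± 49.5 CPM in WT lymphoma, against 2.58 ± 1.30 CPM in WT control pools (SD, n = 3 each). In the KO lymphoma groups the SD exceeded the mean, and in the WT lymphoma groups it was smaller than the mean. The single highest library, CD4 KO lymphoma pool 3, held 34.5% of the Mpo CPM summed over all 24.

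**Figure D1:**
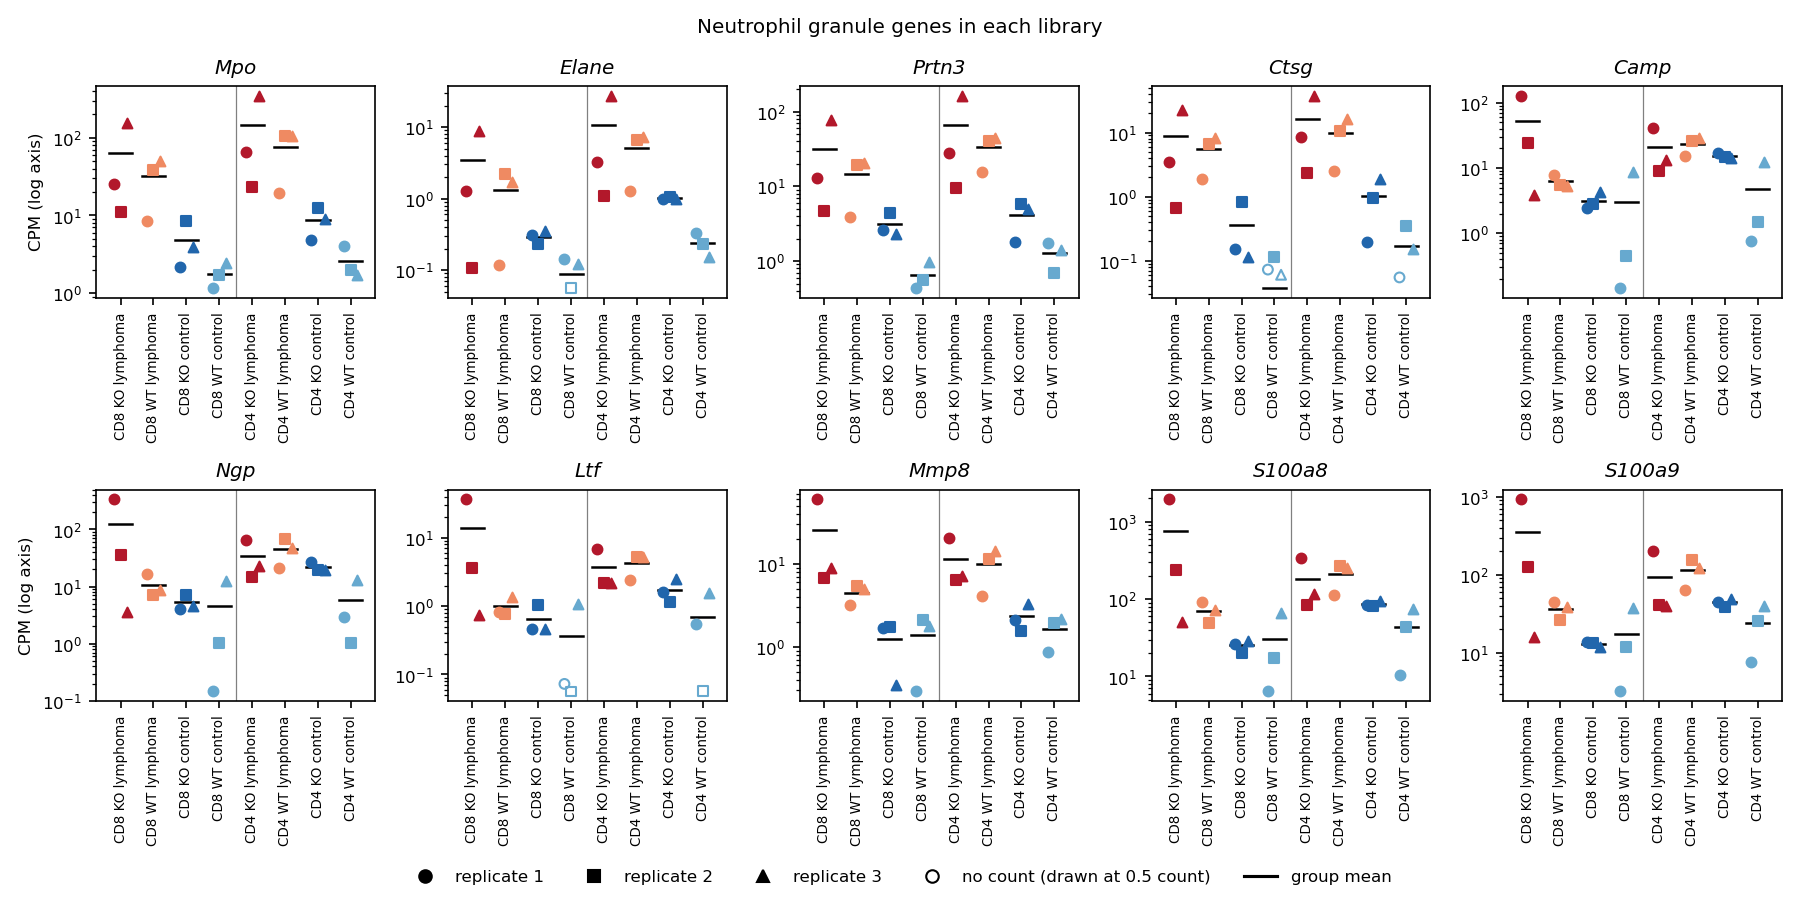
Level of each of the 10 genes in each of 24 libraries, in CPM on a log axis, with CD8 groups left of CD4 groups and KO lymphoma, WT lymphoma, KO control and WT control in that order within each; point shape gives the replicate number, open points stand for libraries with no count (drawn at the level of 0.5 count) and bars are group means. Mpo, Elane, Prtn3 and Ctsg peak in KO lymphoma pool 3, whereas Camp, Ngp, Ltf, Mmp8, S100a8 and S100a9 peak in the CD8 library of KO lymphoma pool 1.

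Prtn3, which encodes proteinase 3, a serine protease of primary granules, followed the same order. It measured 13.0, 4.68 and 78.3 CPM in KO lymphoma pools 1, 2 and 3, 3.89, 19.5 and 20.6 CPM in WT lymphoma pools, 2.60, 4.41 and 2.32 CPM in KO control pools and 0.436, 0.563 and 0.966 CPM in WT control pools in CD8 cells. Prtn3 in CD4 cells measured 27.6, 9.61 and 164 CPM in KO lymphoma pools 1, 2 and 3, 15.5, 40.0 and 44.3 CPM in WT lymphoma pools, 1.79, 5.73 and 4.90 CPM in KO control pools and 1.76, 0.694 and 1.39 CPM in WT control pools. No lymphoma library of Prtn3 fell below a control library of its own cell type and genotype. Elane, the neutrophil elastase gene, measured 1.27, 0.109 and 8.87 CPM in KO lymphoma pools 1, 2 and 3, 0.118, 2.18 and 1.72 CPM in WT lymphoma pools, 0.306, 0.232 and 0.348 CPM in KO control pools and 0.145, 0 and 0.121 CPM in WT control pools in CD8 cells. In CD4 cells Elane measured 3.20, 1.10 and 27.5 CPM in KO lymphoma pools 1, 2 and 3, 1.26, 6.68 and 7.24 CPM in WT lymphoma pools, 0.995, 1.04 and 1.0 CPM in KO control pools and 0.330, 0.231 and 0.154 CPM in WT control pools. All 6 CD8 control values of Elane rest on 3 counts or fewer. The CD8 library of KO lymphoma pool 2 lay below its controls, and that of WT lymphoma pool 1 within its control range. Ctsg encodes cathepsin G, a chymotrypsin-like protease of the same granules. In CD8 cells it measured 3.43, 0.653 and 22.8 CPM in KO lymphoma pools 1, 2 and 3, 1.89, 6.55 and 8.35 CPM in WT lymphoma pools, 0.153, 0.812 and 0.116 CPM in KO control pools and 0, 0.113 and 0 CPM in WT control pools. In CD4 cells it measured 8.38, 2.30 and 37.6 CPM in KO lymphoma pools 1, 2 and 3, 2.53, 10.4 and 16.0 CPM in WT lymphoma pools, 0.199, 0.938 and 1.89 CPM in KO control pools and 0, 0.347 and 0.154 CPM in WT control pools. Its lymphoma and control libraries overlapped in CD8 KO cells alone, through pool 2. The 3 CD8 WT lymphoma libraries held 140 counts of Ctsg in all, against 1 count in the 3 CD8 WT control libraries, a ratio of 135 after scaling by library totals, with an exact 95% interval of 23.8 to 5353 that covers counting error only. For Elane the same libraries held 33 counts, against 2, a ratio of 15.9 with an interval of 4.06 to 136.

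Tested within each genotype, 1 of the 4 primary granule genes passed, in 1 of 4 comparisons. Mpo rose in CD4 WT lymphoma cells, against CD4 WT control cells, by a log2 fold change of 4.78 ± 1.02 (adjusted p = 0.0487) in the edgeR quasi-likelihood test, where 1.69% of 12808 genes passed. It was the single member called there. The other 3 had log2 differences of 4.62 ± 1.07 (adjusted p = 0.054) for Prtn3, 4.21 ± 1.47 (adjusted p = 0.135) for Elane and 5.68 ± 1.85 (adjusted p = 0.0713) for Ctsg. All 10 members had every WT lymphoma library above every WT control library, a pattern that 16.4% of all tested genes showed in CD4 cells. All 10 also had an unadjusted p under 0.05 on the higher side, against 10.6% of tested genes, and DESeq2 called 9 of 10, all but Camp, against 5.29% of tested genes. The Mpo call was close to the threshold of 0.05 and was lost in 11 of 15 other settings, with a log2 fold change of 4.16 to 5.26 and an adjusted p of 4.61e-05 to 0.186 over them. Leaving out 1 library ended the call in 5 of 6 cases: the adjusted p was 0.165 and 0.13 without WT lymphoma pools 2 and 3, and 0.186, 0.185 and 0.125 without WT control pools 1, 2 and 3.

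In CD4 KO cells edgeR called 0 of the 10 members between lymphoma and control, and 0% of all tested genes. The largest log2 differences were 3.99 ± 0.87 (adjusted p = 0.142) for Mpo, 3.93 ± 0.86 (adjusted p = 0.136) for Prtn3, 3.91 ± 1.05 (adjusted p = 0.175) for Ctsg, 3.28 ± 1.01 (adjusted p = 0.198) for Elane and 2.27 ± 0.55 (adjusted p = 0.152) for Mmp8. These 5 had an unadjusted p under 0.05, against 9.21% of tested genes on the higher side, and no overlap between lymphoma and control libraries, against 8.8%. DESeq2 called the same 5, against 2.68% of tested genes. Without KO lymphoma pool 2, the pool with the lowest values, edgeR called the same 5, against 3.83% of tested genes, with Mpo at 4.52 (adjusted p = 0.0406). Without KO lymphoma pool 3, which had the highest values of the primary granule genes, Mpo stood at 2.32 (adjusted p = 0.344). Prtn3 then stood at 2.14, Ctsg at 2.36, Elane at 1.04 and Mmp8 at 2.52, none called. In CD8 WT cells edgeR also called 0 of 10, against 1.42% of tested genes, with 4 members at an unadjusted p under 0.05 (11.8% of tested genes on the higher side), and DESeq2 called 3, Mpo, Prtn3 and Ctsg (6.32% of tested genes). The log2 differences were 4.18 ± 1.14 (adjusted p = 0.0877) for Mpo, 4.44 ± 1.30 (adjusted p = 0.086) for Prtn3 and 6.63 ± 3.08 (adjusted p = 0.079) for Ctsg. In CD8 KO cells they were 3.69 ± 0.96 (adjusted p = 0.0656) for Mpo, 3.33 ± 0.94 (adjusted p = 0.077) for Prtn3, 4.51 ± 1.36 (adjusted p = 0.0696) for Ctsg and 3.44 ± 1.38 (adjusted p = 0.122) for Elane, none called. Without KO lymphoma pool 3 they stood at 1.89 for Mpo, 1.50 for Prtn3, 2.42 for Ctsg and 1.21 for Elane. Without the CD8 library of KO lymphoma pool 2 edgeR called 7 of the 10 members there, all but Camp, Ngp and Ltf, against 14.4% of tested genes. Fitted fold changes of Ctsg and Elane depend on the small count the model adds to libraries near 0. For 4 members no CD8 WT lymphoma library overlapped the CD8 WT control libraries, against 14.2% of tested genes.

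Averaged over both genotypes, a contrast that was added after the data were seen, all 4 primary granule genes rose in lymphoma in both cell types. In CD8 cells the log2 fold change was 5.57 ± 1.68 (adjusted p = 0.00843) for Ctsg, 3.93 ± 0.75 (adjusted p = 0.00894) for Mpo, 3.89 ± 0.80 (adjusted p = 0.00965) for Prtn3 and 3.61 ± 1.25 (adjusted p = 0.0337) for Elane. In CD4 cells it was 4.80 ± 1.06 (adjusted p = 0.0116) for Ctsg, 4.39 ± 0.67 (adjusted p = 0.00587) for Mpo, 4.28 ± 0.68 (adjusted p = 0.0059) for Prtn3 and 3.75 ± 0.89 (adjusted p = 0.0221) for Elane. Ctsg and Elane passed the filter of both cell types through lymphoma libraries, so a fall could hardly have been called for them. Over the 10 members, 7 rose in CD8 cells, where 11.6% of tested genes were called higher and 17.7% were called in all, and 5 rose in CD4 cells, where 5.72% were called higher and 7.18% in all. The median log2 difference of the 10 members was 3.03 in CD8 and 2.12 in CD4 cells, beside -0.03 in CD8 and -0.02 in CD4 cells over all tested genes. Mpo, Prtn3 and Ctsg kept their calls in all 20 other settings in both cell types. Elane lost its call in 12 of 19 settings in CD8 cells and 9 of 20 in CD4 cells. Without KO lymphoma pool 3, Mpo still rose, by 3.03 (adjusted p = 0.0107) in CD8 cells and by 3.54 (adjusted p = 0.0123) in CD4 cells, while Elane stood at 2.49 (adjusted p = 0.0692) in CD8 cells.

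**Figure D2:**
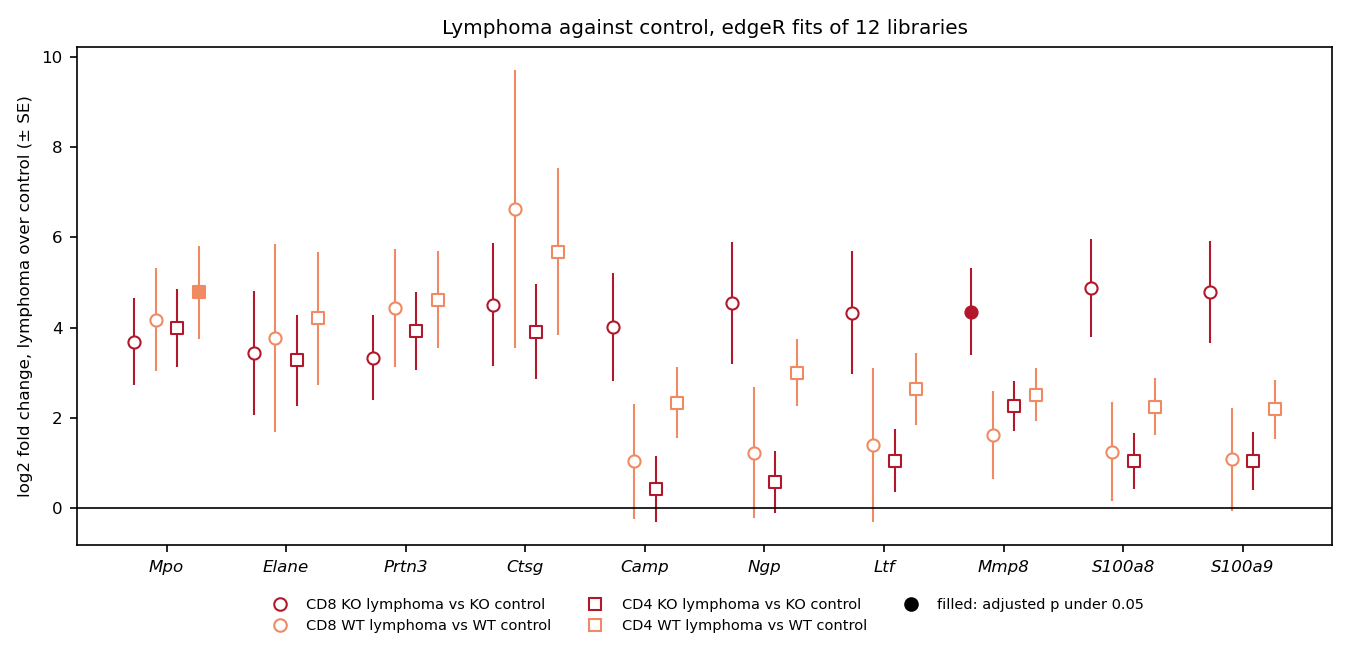
Log2 fold change of each gene, lymphoma over control, in CD8 KO, CD8 WT, CD4 KO and CD4 WT cells; points are edgeR estimates, bars their standard errors and filled points those with an adjusted p under 0.05. Every estimate lies above 0, and 2 passed: Mmp8 in CD8 KO cells (4.35) and Mpo in CD4 WT cells (4.78).

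Among the secondary granule genes, Mmp8 lay between the primary group and the other 3, which moved with S100a8 and S100a9. Mmp8 encodes neutrophil collagenase, a metalloprotease. In CD8 cells it measured 60.6, 6.75 and 8.87 CPM in KO lymphoma pools 1, 2 and 3, 3.19, 5.39 and 5.04 CPM in WT lymphoma pools, 1.68, 1.74 and 0.348 CPM in KO control pools and 0.291, 2.14 and 1.81 CPM in WT control pools. In CD4 cells it measured 20.8, 6.51 and 7.20 CPM in KO lymphoma pools 1, 2 and 3, 4.17, 11.5 and 14.2 CPM in WT lymphoma pools, 2.09, 1.56 and 3.34 CPM in KO control pools and 0.879, 1.97 and 2.16 CPM in WT control pools. Lymphoma libraries lay above control libraries in every cell type and genotype, with values that spread most in CD8 KO lymphoma. Mmp8 rose in CD8 KO lymphoma cells, against CD8 KO control cells, by 4.35 ± 0.96 (adjusted p = 0.0498), the single member of 10 that edgeR called there, against 2.18% of tested genes. All 10 had an unadjusted p under 0.05 on the higher side, against 14.8% of tested genes, 5 had no overlap between libraries, against 14%, and DESeq2 called 9, all but Elane, against 11.8%. The Mmp8 call rested on the CD8 library of KO lymphoma pool 1: without it the difference was 2.62 (adjusted p = 0.133). Without pool 3 it was 4.75 (adjusted p = 0.0681), and the adjusted p was 0.125, 0.0923 and 0.155 without KO control pools 1, 2 and 3. Of 15 other settings in all, 9 ended the call. Averaged over genotypes, Mmp8 rose by 2.99 ± 0.68 (adjusted p = 0.0168) in CD8 cells and 2.39 ± 0.40 (adjusted p = 0.00645) in CD4 cells and kept both calls in all 20 other settings.

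In the edgeR test, Ngp, Camp and Ltf did not pass in any comparison of lymphoma with control, within a genotype or averaged. Ngp encodes neutrophilic granule protein, a member of the cystatin and cathelin family in mice. In CD8 cells it measured 340.1, 35.1 and 3.57 CPM in KO lymphoma pools 1, 2 and 3, 16.3, 7.06 and 8.58 CPM in WT lymphoma pools, 4.13, 7.20 and 4.64 CPM in KO control pools and 0.145, 1.01 and 12.6 CPM in WT control pools. Ngp in CD4 cells measured 64.2, 14.6 and 23.4 CPM in KO lymphoma pools 1, 2 and 3, 21.4, 67.1 and 47.4 CPM in WT lymphoma pools, 27.3, 19.5 and 19.8 CPM in KO control pools and 2.97, 1.04 and 13.3 CPM in WT control pools. The CD8 library of KO lymphoma pool 1 alone held 44.6% of the Ngp CPM summed over all 24, and the CD8 library of KO lymphoma pool 3, the highest CD8 library for Mpo, was the lowest of its group. Camp encodes the cathelicidin precursor of an antimicrobial peptide. It measured 129, 24.2 and 3.82 CPM in KO lymphoma pools 1, 2 and 3, 7.91, 5.52 and 5.26 CPM in WT lymphoma pools, 2.45, 2.79 and 4.29 CPM in KO control pools and 0.145, 0.451 and 8.57 CPM in WT control pools in CD8 cells. In CD4 cells Camp measured 41.5, 9.01 and 13.5 CPM in KO lymphoma pools 1, 2 and 3, 15.5, 26.3 and 29.0 CPM in WT lymphoma pools, 17.3, 14.7 and 14.4 CPM in KO control pools and 0.769, 1.50 and 12.2 CPM in WT control pools. WT control pool 3 was above WT control pools 1 and 2 in both cell types for Camp and Ngp. Ltf, the gene for the iron-binding protein lactoferrin, measured 36.7, 3.59 and 0.739 CPM in KO lymphoma pools 1, 2 and 3, 0.826, 0.771 and 1.37 CPM in WT lymphoma pools, 0.459, 1.04 and 0.464 CPM in KO control pools and 0, 0 and 1.09 CPM in WT control pools in CD8 cells. In CD4 cells Ltf measured 6.78, 2.20 and 2.15 CPM in KO lymphoma pools 1, 2 and 3, 2.40, 5.16 and 5.25 CPM in WT lymphoma pools, 1.59, 1.15 and 2.45 CPM in KO control pools and 0.549, 0 and 1.55 CPM in WT control pools. For Camp, Ngp and Ltf, lymphoma and control libraries overlapped in each of the 4 comparisons but that of CD4 WT cells. Averaged over genotypes, the log2 differences in CD8 cells were 2.89 ± 0.99 (adjusted p = 0.0717) for Ngp, 2.53 ± 0.87 (adjusted p = 0.0714) for Camp and 2.87 ± 1.09 (adjusted p = 0.081) for Ltf. In CD4 cells they were 1.79 ± 0.51 (adjusted p = 0.0617) for Ngp, 1.38 ± 0.54 (adjusted p = 0.15) for Camp and 1.85 ± 0.53 (adjusted p = 0.0543) for Ltf. The CD8 averages of these 3 genes turned on single libraries. Without the CD8 library of KO lymphoma pool 1 they were 1.55 (adjusted p = 0.223) for Ngp, 1.59 (adjusted p = 0.196) for Camp and 1.55 (adjusted p = 0.18) for Ltf. Without that of pool 3, the lowest of its group for each, all 3 passed, at 3.17 (adjusted p = 0.0335) for Ngp, 2.80 (adjusted p = 0.0368) for Camp and 3.14 (adjusted p = 0.0366) for Ltf, against 9.55% of tested genes called higher.

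S100a8 and S100a9 encode the subunits of calprotectin, a calcium- and zinc-binding cytosolic protein that neutrophils release. S100a8 measured 1949, 236 and 50.5 CPM in KO lymphoma pools 1, 2 and 3, 91.1, 48.8 and 71.8 CPM in WT lymphoma pools, 26.3, 20.1 and 29.1 CPM in KO control pools and 6.40, 17.6 and 66.3 CPM in WT control pools in CD8 cells. S100a8 in CD4 cells measured 343, 84.1 and 116 CPM in KO lymphoma pools 1, 2 and 3, 113, 269 and 251 CPM in WT lymphoma pools, 82.6, 81.0 and 93.4 CPM in KO control pools and 10.5, 43.7 and 74.8 CPM in WT control pools. S100a9 measured 935, 127 and 15.9 CPM in KO lymphoma pools 1, 2 and 3, 45.2, 26.1 and 38.8 CPM in WT lymphoma pools, 13.6, 13.6 and 12 CPM in KO control pools and 3.20, 11.9 and 37.2 CPM in WT control pools in CD8 cells. In CD4 cells S100a9 measured 201, 41.2 and 39.9 CPM in KO lymphoma pools 1, 2 and 3, 63.6, 155 and 124 CPM in WT lymphoma pools, 44.8, 39.1 and 48.9 CPM in KO control pools and 7.58, 25.7 and 39.6 CPM in WT control pools. For both genes, the CD8 library of KO lymphoma pool 1 was far above all others, and among CD8 WT libraries the lymphoma values overlapped that of control pool 3. In CD4 WT cells every lymphoma library lay above every control library, and in CD4 KO cells they overlapped. The log2 differences in CD8 KO cells were 4.88 ± 1.08 (adjusted p = 0.0591) for S100a8 and 4.78 ± 1.13 (adjusted p = 0.0634) for S100a9, and without pool 1 they stood at 2.51 (adjusted p = 0.177) for S100a8 and 2.46 (adjusted p = 0.2) for S100a9. Averaged over genotypes, both rose in CD8 cells, S100a8 by 3.07 ± 0.77 (adjusted p = 0.029) and S100a9 by 2.93 ± 0.80 (adjusted p = 0.0374). S100a8 lost its call in 10 of 20 other settings, with an adjusted p of up to 0.0891, and S100a9 in 11 of 20, with an adjusted p of up to 0.119. Leaving out any 1 of the 3 CD8 KO control libraries, any 1 of the 3 CD8 WT lymphoma libraries, WT control pool 1 or KO lymphoma pool 1 ended both calls, and leaving out WT control pool 2 ended that of S100a9. The values moved most without KO lymphoma pool 1, to 1.88 (adjusted p = 0.0593) for S100a8 and 1.78 (adjusted p = 0.0868) for S100a9. In CD4 cells the averages were 1.65 ± 0.44 (adjusted p = 0.0522) for S100a8 and 1.62 ± 0.46 (adjusted p = 0.0636) for S100a9, and neither passed. Without the CD4 library of KO lymphoma pool 2 both passed, S100a8 at 1.80 (adjusted p = 0.0408) and S100a9 at 1.78 (adjusted p = 0.0479), where 15.9% of tested genes were called.

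Between Atm KO and WT mice, the edgeR test called none of the 10 genes in any condition or cell type. Between KO and WT mice with lymphoma, edgeR called 0 of 10 in CD8 cells, where 0.245% of tested genes passed, and 0 of 10 in CD4 cells, where 0% passed. In CD8 cells 6 members had an unadjusted p under 0.05, Camp, Ngp, Ltf, Mmp8, S100a8 and S100a9, all higher in KO, against 8.51% of tested genes on the higher side, and DESeq2 called Mmp8 and S100a8, against 4.2%. The log2 difference was 3.41 ± 1.05 (adjusted p = 0.183) for S100a8 and 2.50 ± 0.82 (adjusted p = 0.182) for Mmp8, and Mmp8 was the single member without overlap between libraries, against 8.03% of tested genes. These differences rested on KO lymphoma pool 1, and without its CD8 library the 6 members stood at 0.78 to 1.18, with S100a8 at 1.04 (adjusted p = 0.621) and Mmp8 at 0.78 (adjusted p = 0.618). In CD4 cells no member had an unadjusted p under 0.05, against 10.9% of tested genes, and DESeq2 called 0, against 0.664%. Between KO and WT mice without lymphoma, edgeR and DESeq2 each called 0 of 10 in both cell types. Of all tested genes edgeR passed 0.522% in CD8 and 2.01% in CD4 cells, and DESeq2 passed 2.96% in CD8 and 6.16% in CD4 cells. No member had an unadjusted p under 0.05 in CD8 cells, against 14.7% of tested genes. In CD4 cells 1 had, against 12.5% on the higher side, Ngp at 1.97 ± 0.75 (adjusted p = 0.205). All KO control libraries lay above all WT control libraries for 3 members in CD8 cells, against 12.1% of tested genes, and for 6 members in CD4 cells, against 21.4%. The 3 in CD8 cells were Prtn3, Elane and Ctsg. Elane rested on 2 to 3 counts in KO control libraries, against 0 to 1 in WT control libraries. For Ctsg it was 1 to 7 counts, against 0 to 1. The separation of Elane and Ctsg thus lay at or near the limit of detection. Without the CD4 library of WT control pool 3 edgeR called Camp at 3.64 (adjusted p = 0.0281) and Ngp at 3.35 (adjusted p = 0.0434), against 2.79% of tested genes, and no other member. Without the CD8 library of that pool edgeR called no member in CD8 cells, with Camp at 3.29 (adjusted p = 0.51) and Ngp at 3.07 (adjusted p = 0.588). Mice of WT control pool 3 carry B identifiers, while those of WT control pools 1 and 2 carry S identifiers. KO control pools 2 and 3 also carry B identifiers, as does 1 of the 2 mice of KO lymphoma pool 1, the single lymphoma pool with such a mouse. The labels do not say what the letter stands for. With the share of B identifiers as a covariate, edgeR called 6 of the 10 members between CD8 KO lymphoma and CD8 KO control, against 3.5% of tested genes, in place of 1. The summed level of 11 monocyte and macrophage markers also differed by genotype, and its part in these results was not tested. It was 949 to 1321 CPM in CD8 KO lymphoma, against 756 to 822 CPM in CD8 WT lymphoma, and 908 to 1052 CPM in CD8 KO control, against 185 to 833 CPM in CD8 WT control. In CD4 cells it was 1142 to 1520 CPM in KO lymphoma, against 551 to 702 CPM in WT lymphoma, and 1081 to 1501 CPM in KO control, against 470.1 to 756 CPM in WT control.

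Whether lymphoma changed these genes differently in KO and WT mice was tested as the difference of the 2 responses. edgeR and DESeq2 called 0 of 10 in either cell type, where edgeR passed 0% of tested genes in both and DESeq2 passed 0.00791% in CD8 and 0.00781% in CD4 cells. In CD8 cells 2 members had an unadjusted p under 0.05, against 3.49% of tested genes, S100a8 at 3.62 ± 1.53 (adjusted p = 1) and S100a9 at 3.69 ± 1.60 (adjusted p = 1), KO minus WT. Without the CD8 library of KO lymphoma pool 1 they stood at 1.26 and 1.37 (adjusted p = 1 for both). In CD4 cells 1 had, against 3.64%, Ngp at -2.43 ± 1.01 (adjusted p = 1).

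CD8 and CD4 libraries of the same mouse pool could be set side by side. In the fit without the pool, edgeR called 0 of 10 members in each of the 4 conditions, where 2.35% of tested genes passed in KO lymphoma, 4.95% in KO control, 2.54% in WT lymphoma and 3.48% in WT control. DESeq2 also called 0 in each, against 3.64% of tested genes in KO lymphoma, 7.32% in KO control, 3.24% in WT lymphoma and 4.45% in WT control. At an unadjusted p under 0.05 there were 2 members in KO lymphoma, against 11.5% of tested genes, and 0 in the other 3 conditions, against 17.4% in KO control, 9.36% in WT lymphoma and 10.7% in WT control. With the mouse pool as a block, which the labels support because the same mice gave both libraries, primary granule genes were lower in CD8 than in CD4 cells. In KO lymphoma the log2 difference, CD8 over CD4, was -1.07 ± 0.18 (adjusted p = 0.00257) for Mpo, -1.56 ± 0.39 (adjusted p = 0.0334) for Elane and -0.93 ± 0.21 (adjusted p = 0.0233) for Prtn3, against 4.1% of tested genes called. In WT lymphoma it was -1.17 ± 0.18 (adjusted p = 0.00166) for Mpo, -1.95 ± 0.41 (adjusted p = 0.011) for Elane and -1.25 ± 0.22 (adjusted p = 0.00373) for Prtn3, against 3.45%. In KO control mice Mpo alone was lower, at -0.80 ± 0.24 (adjusted p = 0.0453), against 8.96%, and in WT control mice 0 of 10 were called, against 4.81%. Over all 4 conditions, an average added after the data were seen, Mpo, Elane, Prtn3 and Ctsg were lower in CD8 cells under the pool block, against 9.69% of tested genes called lower, and edgeR called 0 of 10 without it, against 13.7% in either direction. Without the block 1 member was at an unadjusted p under 0.05 (24.7% of tested genes) and 0 were called by DESeq2 (15.6%). Mpo was lower in the CD8 library of 11 of 12 pools, with a CD8 to CD4 ratio of 0.286 to 1.42 and a median of 0.446. Elane had over 3 counts in both libraries of 4 pools, all with lymphoma, where the ratio was 0.237 to 0.398. In the other 8 pools the CD8 library held 0 to 3 counts of it.

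None of the other 6 genes was called between CD8 and CD4 cells under the pool block, and over all conditions Camp came nearest at -1.02 (adjusted p = 0.0614). S100a8 was lower in the CD8 library of 10 of 12 pools, and its CD8 to CD4 ratio was 5.69, 2.81 and 0.434 in KO lymphoma pools 1, 2 and 3. The ratio for Mmp8 was 0.355 to 2.91, with a median of 0.937, in the 10 pools with over 3 counts in both libraries. Whether the KO lymphoma response differed between CD8 and CD4 cells was also tested: edgeR called 0 of 10 without the pool block, against 0% of tested genes, and 0 with it, against 0.189%. Without the block 5 members had an unadjusted p under 0.05, against 4.75% of tested genes, S100a8 at 3.87 ± 1.32 (adjusted p = 0.861) among them, and DESeq2 called 0, against 0.0302%. Without the CD8 library of KO lymphoma pool 1 that difference of S100a8 was 1.49 (adjusted p = 1). For WT mice edgeR called 0 of 10 with or without the block, against 0% of tested genes, with 0 at an unadjusted p under 0.05 (1.36% of tested genes) and 0 by DESeq2 (0.00756%).

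**Figure D3:**
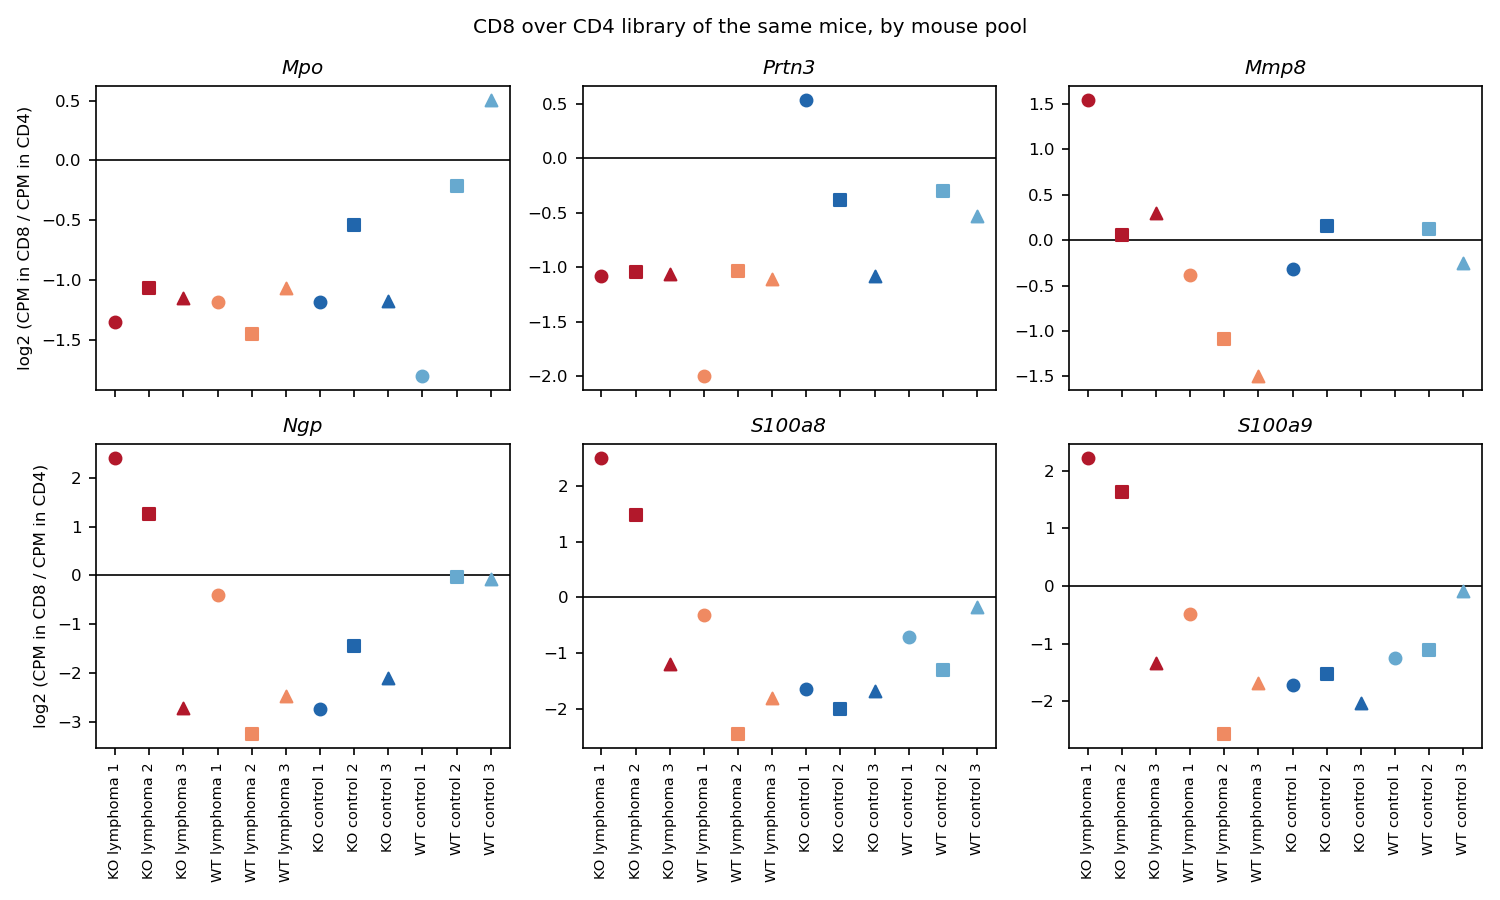
Log2 ratio of CD8 to CD4 CPM in each mouse pool for Mpo, Prtn3, Mmp8, Ngp, S100a8 and S100a9, by condition; each point is 1 pool and pools where either library had 3 counts or fewer are left out. Mpo lies below 0 in 11 of 12 pools, and S100a8 lies above 0 in KO lymphoma pools 1 and 2 and below it in pool 3.

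Across libraries the 10 genes fell into groups by co-variation. Pearson correlations of log2 CPM over 24 libraries from 12 pools, which share mice between CD8 and CD4 and share lymphoma status within groups, were 0.896 to 0.985 among Mpo, Elane, Prtn3 and Ctsg. Among Camp, Ngp, Ltf, S100a8 and S100a9 they were 0.904 to 0.988, and between these groups 0.347 to 0.577. Mmp8 lay between them, at 0.585 to 0.745 with the primary granule genes and 0.752 to 0.872 with the other 5. Ratios of counts within a library show the same split. The S100a8 to S100a9 ratio stayed within 1.39 to 3.18 over all 24 libraries, a 2.28-fold range, and the Mpo to Prtn3 ratio within 0.824 to 3.00, a 3.64-fold range, while the Mpo to Ngp ratio ran from 0.0753 to 44.0, a 585-fold range. Both ends of that range were CD8 KO lymphoma libraries, pool 1 at the low end and pool 3 at the high end. In the CD4 libraries of the same pools the ratio was 1.02 in pool 1 and 15.0 in pool 3.

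**Figure D4:**
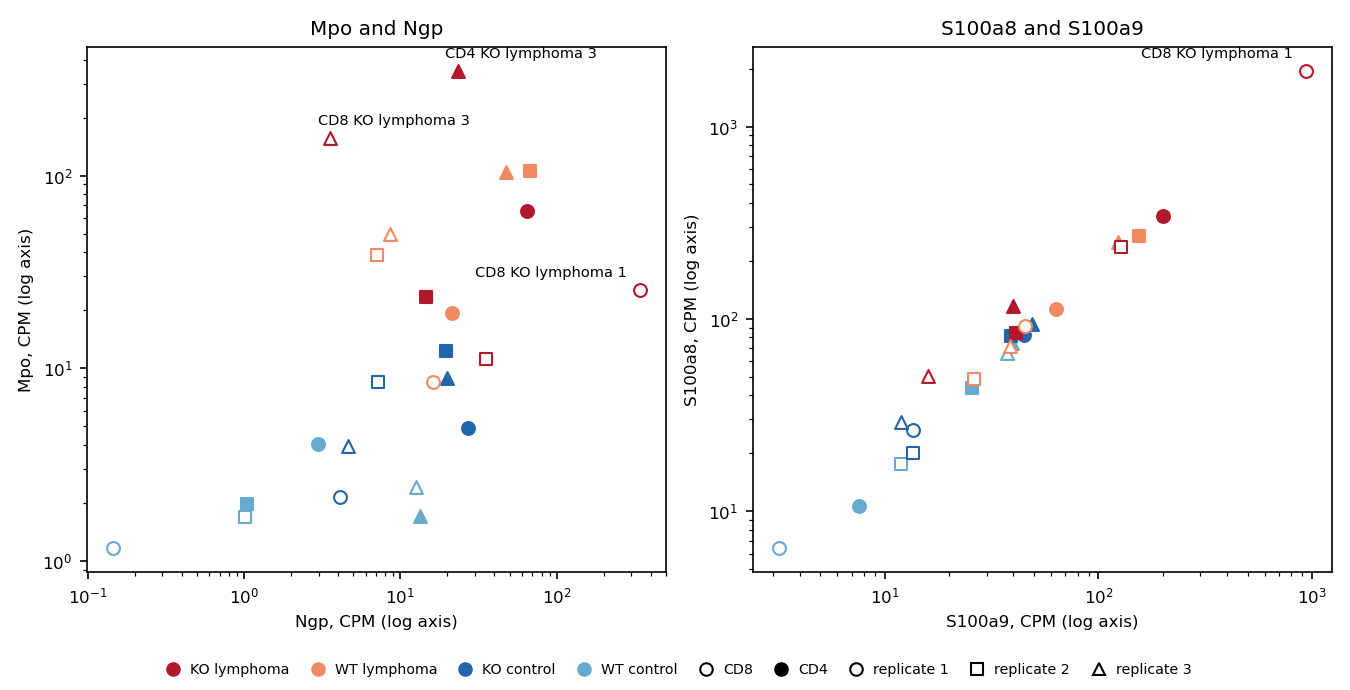
Left, Mpo against Ngp, and right, S100a8 against S100a9, in CPM on log axes, 1 point per library, open for CD8 and filled for CD4 cells. S100a8 and S100a9 lie along 1 line, whereas Mpo and Ngp scatter, with CD8 KO lymphoma pool 1 at 25.6 CPM of Mpo and 340.1 CPM of Ngp and CD8 KO lymphoma pool 3 at 157 CPM of Mpo and 3.57 CPM of Ngp.

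Outside the neutrophil lists, the genes whose levels over the 24 libraries were most like the mean log2 CPM of the 4 primary granule genes, among 13199 searched, were Plppr3 (r = 0.96), Cd34 (0.958), Prss34 (0.957), Mycn (0.947) and Stmn1 (0.944). Cd34 is a surface marker of blood progenitors and Prss34 encodes a mast cell and basophil protease. All 5 had their highest level in CD4 KO lymphoma pool 3, where Cd34 reached 29.9 CPM, against a median of 2.69 CPM over all libraries, and Prss34 reached 99.4 CPM, against a median of 3.52 CPM. The genes most like the mean of the secondary granule genes and S100a8 and S100a9 were Gadd45b (0.884), Alox15 (0.881), Trp53inp2 (0.877), Rnf19b (0.873) and Padi4 (0.872), of which Padi4 encodes an enzyme that neutrophils use to citrullinate histones. These are descriptions over libraries that share mice and treatment, and no shared control is read from them.

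Other genes of the neutrophil programme were counted from lists of known members. Some genes of these and the later lists were near 0 in control libraries and passed the filter through lymphoma libraries. A fall could hardly have been called for such genes. Counts are given for the contrast averaged over genotypes, where 11.6% of tested genes were called higher and 6.12% lower in CD8 cells, and 5.72% higher and 1.46% lower in CD4 cells. Of 9 tested granule genes beyond the 10, 5 rose in lymphoma in CD8 cells and 3 in CD4 cells, with a median log2 difference over the list of 2.11 in CD8 and 1.26 in CD4 cells, beside medians of all genes of -0.03 in CD8 and -0.02 in CD4 cells. Hp, the gene for haptoglobin, rose by 3.41 ± 0.51 (adjusted p = 0.00415) in CD8 and 2.84 ± 0.28 (adjusted p = 0.000898) in CD4 cells, and Chil3, which encodes a chitinase-like protein, and Lyz2, the lysozyme gene of myeloid cells, rose in both. Cd177, a neutrophil surface protein gene, and Lcn2, which encodes an iron-siderophore binder of secondary granules, rose in CD8 cells. Their means over CD8 control libraries were 0.353 CPM for Cd177 and 0.365 CPM for Lcn2. Both thus passed the CD8 filter through lymphoma libraries, and a rise was the direction that could be called. Lcn2 measured 15.9, 1.85 and 0.493 CPM in CD8 KO lymphoma pools 1, 2 and 3, and without pool 1 its average stood at 1.67 (adjusted p = 0.112). That of Cd177 then stood at 1.78 (adjusted p = 0.108) and that of Lyz2 at 1.53 (adjusted p = 0.0711). Of the 9 genes, 2 were called without pool 1, against 8.04% of tested genes called higher. Of the genes of mature neutrophils, 10 of 13 tested rose and 1 fell in CD8 cells, and 10 of 14 rose in CD4 cells. In CD8 cells without KO lymphoma pool 1, 9 rose and 1 fell. Clec4d, a C-type lectin receptor of myeloid cells, rose by 2.21 ± 0.36 (adjusted p = 0.00367) in CD8 and 2.12 ± 0.29 (adjusted p = 0.00173) in CD4 cells, and Fpr2, a formyl peptide receptor, rose in both as well. G0s2, which encodes an inhibitor of fat breakdown, was the gene that fell, by 0.46 on the log2 scale in CD8 cells. Retnlg, at 1.53 ± 0.87 (adjusted p = 0.242), and Cxcr2, at 0.51 ± 0.25 (adjusted p = 0.178), were not called by edgeR in CD8 cells. The sum over the 15 mature neutrophil genes was 244 to 510.2 CPM in CD8 KO lymphoma, against 105 to 169.5 CPM in CD8 KO control, and 126 to 253 CPM in CD8 WT lymphoma, against 77.4 to 119.6 CPM in CD8 WT control. In CD4 cells the sum was 154 to 304 CPM in KO lymphoma, against 122.9 to 131 CPM in KO control, and 124 to 241 CPM in WT lymphoma, against 68.0 to 107 CPM in WT control. Ly6g, a defining surface marker of mouse neutrophils, was at most 3.04 CPM and had no count in 8 of 24 libraries. Bpi, another granule gene on the list, had no count in any library.

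Among transcription factors of granulopoiesis, 4 of 5 tested rose in lymphoma in CD8 cells, against 11.6% of all tested genes, and 5 of 6 in CD4 cells, against 5.72%. Cebpd rose by 1.57 ± 0.32 (adjusted p = 0.00927) in CD8 and 1.57 ± 0.23 (adjusted p = 0.00325) in CD4 cells, and Cebpb, Cebpa and Spi1, which encodes PU.1, rose in both. Cebpe, the C/EBP factor that secondary granule genes need, rose in CD4 cells, by 2.06, and was not among the genes tested in CD8 cells. Its mean was 1.15 CPM in CD4 WT lymphoma and lower in the CD4 control groups. Cebpe thus passed the CD4 filter through lymphoma libraries, and a fall could hardly have been called. Gfi1, a repressor active in granulocyte precursors and in T cells, stood at -0.44 ± 0.15 (adjusted p = 0.0575) in CD8 and -0.06 ± 0.15 (adjusted p = 0.835) in CD4 cells. Cebpa was not called in CD8 cells without KO lymphoma pool 1 (1.27, adjusted p = 0.0562) or without pool 3 (1.23, adjusted p = 0.0571), nor Cebpb in CD4 cells without pool 3 (1.63, adjusted p = 0.092). Of the genes that activate or inhibit granule proteases, 2 of 4 rose in CD8 cells and 1 of 5 in CD4 cells: Cstb, a cystatin, in both, and Ctsc, the protease that activates the serine proteases of primary granules, in CD8 cells by 0.42. Of 4 receptor genes for S100a8 and S100a9, Cd14, a co-receptor of Tlr4, rose in CD8 cells by 1.27 (adjusted p = 0.0177), and 0 were called by edgeR in CD4 cells, with 1 at an unadjusted p under 0.05. Of 6 genes of the phagocyte oxidase, which supplies the peroxide that Mpo uses, Cybb rose in both cell types, by 1.90 in CD8 and 1.23 in CD4 cells. Ncf1 rose and Rac2, which lymphocytes also express, fell by 0.25 in CD8 cells. Without the CD8 library of KO lymphoma pool 1 none of the 6 was called by edgeR in CD8 cells, with Cybb at 1.71 (adjusted p = 0.0503), Ncf1 at 0.48 (adjusted p = 0.0691) and Rac2 at -0.22 (adjusted p = 0.0647), each with an unadjusted p under 0.05.

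Some markers of other cells rose with the granule genes in lymphoma, and their part in the results was not tested. Blood progenitor markers rose for 7 of 8 genes in CD8 cells, where 11.6% of all tested genes were called higher, and 6 of 8 in CD4 cells, where 5.72% were, averaged over genotypes. Without KO lymphoma pool 3 they rose for 4 of 8 in CD8 cells, against 9.55% of tested genes, and for 6 of 8 in CD4 cells, against 4.73%. Their summed level was 86.9 to 326 CPM in CD8 KO lymphoma libraries, against 36.7 to 62.8 CPM in CD8 KO controls, and 54.8 to 179 CPM in CD8 WT lymphoma, against 12.1 to 29.2 CPM in CD8 WT controls. In CD4 cells it was 93.5 to 383 CPM in KO lymphoma, against 55.4 to 60.2 CPM in KO controls, and 59.6 to 208 CPM in WT lymphoma, against 15.4 to 24.9 CPM in WT controls. Both maxima were in KO lymphoma pool 3, the pool with the most Mpo. Markers of basophils, mast cells and eosinophils rose for 5 of 9 tested genes in CD8 and 8 of 10 in CD4 cells, and their sums also peaked in that pool, at 253 CPM in CD8 and 429 CPM in CD4 cells. Among defining markers, Kit, a receptor of progenitors and mast cells, ran from 1.89 to 63.5 CPM and Mcpt8, a basophil protease gene, from 0.145 to 56.1 CPM over all libraries, while Epx, the eosinophil peroxidase gene, had no count in 5 of 24. Platelet markers rose for 8 of 10 genes in both cell types, and their sum was 314 to 457 CPM in CD8 KO lymphoma, against 149 to 287 CPM in CD8 KO control. Monocyte and macrophage markers rose for 4 of 11 genes in CD8 cells, and 3 of 11 rose and 1 fell in CD4 cells. Their defining gene Csf1r, the receptor for a macrophage growth factor, was above 0 in all 24 libraries, at 10.04 to 129.8 CPM.

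The CD8 library of KO lymphoma pool 1, with the most Ngp, S100a8 and S100a9, was also the highest of its group in erythroid and B cell markers. The summed level of 10 erythroid markers was 66132 CPM there, against 7931 and 1397 CPM in CD8 KO lymphoma pools 2 and 3 and 1266 to 3446 CPM in CD8 KO controls. The sum of 9 B cell markers was 759 CPM in that library, against 160 and 41.4 CPM in pools 2 and 3 and 111 to 153 CPM in CD8 KO controls. Cd8a was 142 CPM in it, the lowest of the CD8 libraries. The sum of 13 pan-T markers was 1354 CPM in it, against 2628 and 2048 CPM in pools 2 and 3 and 3155 to 3404 CPM in CD8 KO controls. Averaged over genotypes, pan-T markers fell for 9 of 13 genes in CD8 cells, against 6.12% of tested genes, and 1 of 13 in CD4 cells, against 1.46%. Without this library they fell for 11 of 13 in CD8 cells, against 4.21%. B cell markers were called for 0 of 9 genes by edgeR in CD8 cells, with 0 at an unadjusted p under 0.05, and 2 of 9 fell in CD4 cells. Without the CD4 library of KO lymphoma pool 3 edgeR called 0 of the 9 in CD4 cells, where 1.44% of tested genes were called lower. In that fit 8 were lower at an unadjusted p under 0.05, and the share of all tested genes at that level is not given. Erythroid markers rose for 3 of 10 genes in CD8 cells, against 11.6% of tested genes, and 2 of 10 in CD4 cells, against 5.72%. Without this library they rose for 3 of 10 in CD8 cells, against 8.04%.

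**Figure D5:**
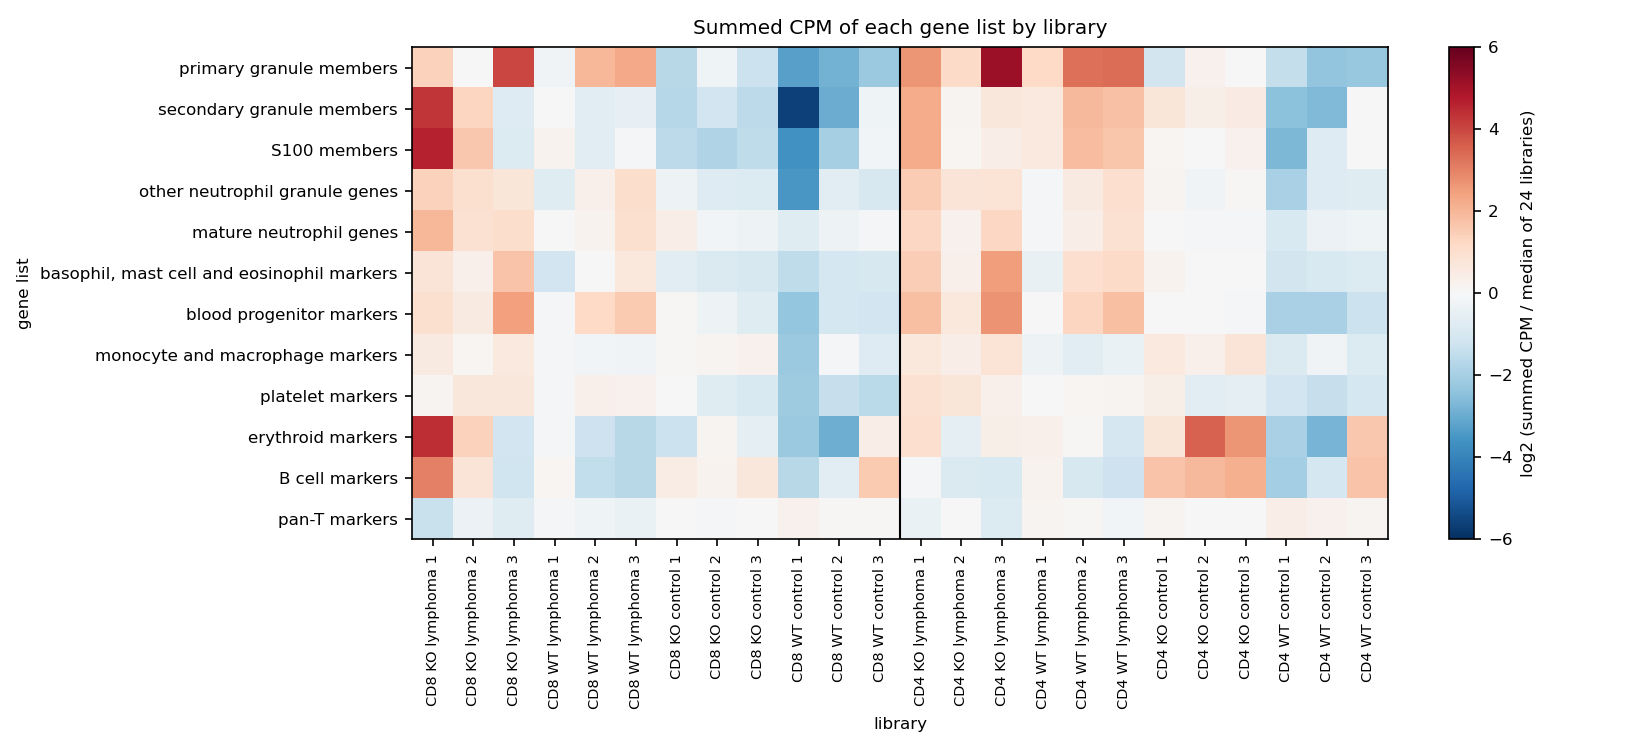
Summed CPM of each gene list in each library, as log2 of the ratio to the median of that list over 24 libraries, lists down the page and libraries across. Values run from -5.62 to 5.12. Primary granule genes, progenitor markers and basophil markers peak together in KO lymphoma pool 3, and secondary granule genes, S100 genes and erythroid markers peak in the CD8 library of KO lymphoma pool 1.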

How the data were processed

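The deposited table holds estimated counts per gene for 24 libraries, and the authors named no normalization for them. Per the submitters' processing notes, Salmon 0.11.3 was used, and GRCh38, a human build, is named for these mouse samples. The step each served, and how estimates were summed to genes, are not given in the sources used here. Per the labels, libraries were made with the Lexogen QuantSeq FWD kit, which counts tags near the 3′ end, so levels were not divided by gene length.

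Of 34113 genes, 2 with a cell that is no number were dropped, and 11473 of the other 34111 had no count. Counts are whole numbers as deposited. CPM is the count over the library total, and log2 CPM used a prior count of 2. CD4 and CD8 libraries were fitted apart with edgeR 4.0.16 (R 4.3.3, filterByExpr, trimmed mean of M values, factors 0.903 to 1.08 in CD4 and 0.972 to 1.04 in CD8, robust quasi-likelihood test, 8 residual degrees of freedom, Benjamini-Hochberg over all 12808 or 12650 tested genes at 0.05). CD8 and CD4 were compared in a fit of all 24 (13232 genes, 16 degrees of freedom). Values after ± are SDs for CPM and standard errors for log2 fold changes. The alternatives were voom with sample weights (limma 3.58.1), DESeq2 1.42.0 and its size factors in edgeR, other filters, a covariate for B identifiers, replicate blocks, other sets of libraries and leaving out each library. List counts were also recomputed without the CD8 library of KO lymphoma pool 1 or 3, or the CD4 library of pool 3, a choice made after seeing the data. The code was tested on simulated data. Labels pair CD8 and CD4 libraries by mice, and the residuals of these 12 pairs correlated at -0.018 to 0.525.

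Members and lists were chosen with earlier results of these data known. All 10 members are named in each lymphoma comparison. Other lists are represented by up to 4 genes, those with the smallest p among genes called, and genes named beyond these were chosen after their values were seen. Genes of like pattern were the 5 highest correlations per group outside the neutrophil lists. Promoters are RefSeq sequences, matched for all 10 by symbol. Positions come from RefSeq on GRCm38.p6 and not from the files. Mean and standard error do not cover isolation or pooling errors. No pair of libraries was identical.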

Additional observations from a re-analysis of the deposited data

Results flagged for a closer look

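Mmp8 lay on opposite sides in the lymphoma groups when CD8 and CD4 libraries of the same pool were compared, and neither difference passed. In KO lymphoma mice all 3 pools had more Mmp8 in CD8 than in CD4 cells, with a mean difference, CD8 minus CD4, of 13.9 ± 22.4 CPM (SD, n = 3). The KO mean rests on pool 1, where Mmp8 was 60.6 CPM in CD8 and 20.8 CPM in CD4 cells, and pool 2 held 62 counts in its CD8 library and 65 in its CD4 library, a CPM ratio of 1.04. In WT lymphoma mice all 3 pools had less in CD8 cells, with a mean difference of -5.41 ± 4.13 CPM (SD, n = 3). With the mouse pool as a block, edgeR gave a log2 difference of 0.81 ± 0.38 (adjusted p = 0.359) in KO lymphoma and -0.97 ± 0.42 (adjusted p = 0.333) in WT lymphoma. The means lie 19.3 CPM apart, and this difference between the genotypes was not tested.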

How the results depend on the processing

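Over 3178 member fold changes in other settings, 0 passed in the opposite direction, 2900 kept their sign and their side of the threshold, 114 gained a call, 62 lost one and 102 changed sign with neither value passing. The number of the 10 members called between lymphoma and control moved most. In CD8 KO cells it was 1, against 9 with DESeq2, 6 with the share of B identifiers as a covariate, 6 with all 24 libraries in one fit, and 0 with no filter, with voom or with the 6 libraries compared alone. In CD8 WT cells it was 0, against 3 with DESeq2 and 2 with 6 libraries. In CD4 KO cells it was 0, against 5 with DESeq2 and 3 with voom. In CD4 WT cells it was 1, against 9 with DESeq2, 2 with all 24 libraries, 4 with 6 libraries and 0 with no filter or a stricter one. The average over genotypes gave 7 in CD8 cells, against 4 with no filter, and 5 in CD4 cells, against 9 with DESeq2 and 10 with voom. Between KO and WT lymphoma, CD8 cells had 0, against 2 with DESeq2. The cause of these shifts was not tested. Shares of all tested genes called are given above for part of these settings only. The counts here describe the processing and are no result about the members. Leaving out 1 library gave 0 to 7 in CD8 KO, 0 to 0 in CD8 WT, 0 to 5 in CD4 KO and 0 to 2 in CD4 WT cells, 4 to 9 for either average, 0 to 2 for CD4 KO against WT control and 0 to 1 for CD8 against CD4 over all conditions. The other counts stayed at 0.

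With the mouse pool as a block, the number of members called between CD8 and CD4 was 3 in KO lymphoma, 1 in KO control, 3 in WT lymphoma and 4 over all conditions, each against 0 without it. Replicate numbers pair no mice between conditions, and residuals of the 24 number-only pairs correlated at -0.142 to 0.322. With that number as a block, CD8 KO lymphoma against control had 0 calls in place of 1, and the Mpo call in CD4 WT cells was lost (log2 4.46, adjusted p = 0.0876). With 3 pools per group, and Elane, Ctsg and Ltf near 0 in controls, depth limits fold changes of these 3 genes.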
